A study of Mus musculus with 20 samples.

Results

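AMPA receptors are the channels that carry most fast excitatory transmission in the brain, and 9 genes of this receptor system were followed in the cerebellum of mice with and without spinocerebellar ataxia type 7 (SCA7). The genes are the 4 subunit genes Gria1, Gria2, Gria3 and Gria4 and the 5 genes Cacng2, Cacng4, Cacng5, Cacng7 and Cacng8, which encode transmembrane AMPA receptor regulatory proteins (TARPs). They were listed by symbol, with earlier results of these data known. Each symbol matched 1 Ensembl gene among the 55401 genes of the read count table, of which 21897 are protein-coding. All 9 had enough reads to be tested in every comparison.

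The 20 libraries each hold the polyadenylated RNA of 1 whole cerebellum from a C57BL/6J mouse. At 25w, 5 SCA7 140Q/5Q knock-in mice had received the adeno-associated virus AAV PHP.eB with the short hairpin RNA shA4, which targets CAG repeats, and 5 had received the same virus with the scrambled hairpin shSCR. They were compared with 4 untreated wild-type (WT) mice of 25w. At 9w, 3 WT mice given shA4 were compared with 3 untreated WT mice. The vector was injected into the retro-orbital vein at about 5 weeks of age, it also expresses eGFP, and the methods state saline for mice without the vector. The labels do not say from which day the 9 and 25 weeks were counted. The study's text counts both times from the injection, and the late time it gives is shorter than the one in the labels. No SCA7 group was left without virus, and no WT group received shSCR. The vector reaches Purkinje cells far more often than granule cells, so a whole cerebellum holds many cells without it.

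Each receptor is a tetramer of subunits. Receptors that contain the edited product of Gria2 pass hardly any calcium, while receptors built without it are calcium-permeable. TARPs bind the assembled channel, and many of them bring it to the synapse and slow its closing. In the cerebellum, Purkinje cells receive parallel fibre and climbing fibre input through AMPA receptors rich in the products of Gria2 and Gria3, Bergmann glia use those of Gria1 and Gria4, and granule cells depend on the Cacng2 product, stargazin, whose loss causes the ataxia of the stargazer mouse.

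The codon that decides calcium flow lies in the pore segment. It is shown here for the 4 subunit genes because the read counts sum over both of its forms in Gria2. The transcript sequences are those of GENCODE M21 (mouse GRCm38), sense strand, 5′ to 3′, with the codon in capitals.
Gria1: ggggccttcatgCAGcaaggatgtgacatt
Gria2: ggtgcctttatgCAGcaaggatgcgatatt
Gria3: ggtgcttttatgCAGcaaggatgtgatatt
Gria4: ggtgcctttatgCAAcaaggatgtgacatt
Counted from the start codon of the longest reading frame, the capitals are codon 600 in Gria1, 607 in Gria2, 612 in Gria3 and 608 in Gria4. The codon is CAG in 3 of the genes and CAA in Gria4. In Gria2 messenger RNA, the enzyme ADAR2 edits this codon, and a table of counts per gene cannot tell edited from unedited reads. A single CAG is not a repeat: the longest run of CAG in any annotated transcript of the 9 genes was 2 or 3 copies.

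The TARPs differ in their last codons, which in part of the family end in a signal for binding the synaptic scaffold PSD-95. The end of the reading frame is shown from GENCODE M21 in the same way, with the last 4 codons before the stop codon in capitals.
Cacng2: aaccgccggACCACGCCCGTAtga
Cacng4: aaccggcggACGACTCCCGTGtga
Cacng8: aacaggaaaACCACGCCCGTGtag
Cacng5: cagatgtcaTCATCTCCCTGCtga
Cacng7: cacatctccACTTCGCCGTGCtga
By the standard genetic code, the last 4 codons of Cacng2, Cacng4 and Cacng8 encode the same residues, and those of Cacng5 and Cacng7 match no other gene of the 5. Cacng2, Cacng4 and Cacng8 belong to the type I TARPs, and Cacng5 and Cacng7 are the type II TARPs.

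In GRCm38, Gria1 (ENSMUSG00000020524) lies on chromosome 11 from 57011387 to 57330244 on the plus strand and Gria2 (ENSMUSG00000033981) on chromosome 3 from 80681450 to 80802835 on the minus strand. Gria3 (ENSMUSG00000001986) is X-linked, on chromosome X from 41400854 to 41678601 on the plus strand, and Gria4 (ENSMUSG00000025892) lies on chromosome 9 from 4417896 to 4796234 on the minus strand. Cacng4 (ENSMUSG00000020723, chromosome 11 from 107732357 to 107794557) and Cacng5 (ENSMUSG00000040373, chromosome 11 from 107874605 to 107915055) are neighbours on the minus strand. Cacng7 (ENSMUSG00000069806, chromosome 7 from 3332955 to 3368221) and Cacng8 (ENSMUSG00000053395, chromosome 7 from 3390683 to 3415648) are neighbours on the plus strand. Cacng2 (ENSMUSG00000019146) lies on chromosome 15 from 77991748 to 78120028 on the minus strand, and 323 bases of its exons are also covered by the antisense gene A730060N03Rik. In each library that antisense gene had at most 1.95% of the Cacng2 count (5431 to 10031), and whether reads were assigned by strand is not given in the sources used here.

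Between 31465586 and 54570503 reads were counted on genes in each library. The least abundant of the 9 genes, Cacng8, still had 263 to 589 counts in a library, and each of the others had at least 1922. Levels are given as CPM, the reads of a gene scaled to a common library total. Atxn7, the gene with the knocked-in repeat, was at 45.6 to 53.4 CPM in the shSCR group, at 44.4 to 51.7 CPM in the shA4 group of SCA7 mice and at 45.7 to 50.2 CPM in WT mice of 25w. These counts sum the reads of both alleles, and the study measured the effect of shA4 on the mutant product as protein. The labelled tissue was checked against forebrain neuron markers: Emx1 stayed at or below 0.328 CPM in all libraries, while Neurod6 reached 9.53 CPM. Y-linked Ddx3y was read at 59.8 CPM or more in each library, so the X-linked Gria3 was compared between mice that all carry a Y chromosome. WT mice given shA4 had 36245752 to 39208298 counted reads and untreated WT mice of 9w had 47455917 to 49212593. In bulk tissue, fewer cells of a type and less RNA per cell cannot be told apart.

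Per kilobase of transcript, Cacng7 was the most abundant of the 9 transcripts in every group. In untreated WT mice of 25w its level, as CPM divided by the median length of the annotated transcripts in kilobases, was 265 ± 14.2 (SD, n = 4). The next subunit genes were close to each other on this scale: Gria1 at 120.0 ± 5.05, Gria2 at 118 ± 3.93 and Gria4 at 107 ± 4.50 (SD, n = 4 each). Gria1 and Gria2 overlapped between libraries, and so did Gria2 and Gria4. A gap of 2.61-fold separated Gria4 from Gria3, at 41.1 ± 2.22. Cacng2 followed at 35.4 ± 0.941, Cacng4 at 26.5 ± 1.32 and Cacng5 at 22.7 ± 0.807, and these did not overlap with their neighbours in the order. Cacng8, the main TARP of the hippocampus, was last at 6.34 ± 1.08, 3.58-fold below Cacng5.

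This order depends on the length used, most of all for Gria2, whose annotated transcripts reach 10371 bases against a median of 3571.5. With the longest transcript as length, the level of Gria2 in WT mice of 25w was 40.8 and that of Gria3 28.7, and with the union of all exons they were 27.2 and 15.2. Cacng7 stayed first (180.9 and 163.9), Gria1 second (116 and 106) and Cacng8 last (4.61 and 3.73) under both lengths. In both SCA7 groups Cacng4 stood above Gria3 and Cacng2 in the order by median length, but these 3 genes overlapped as neighbours. Differences between groups within 1 gene are not touched by the length.

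**Figure D1:**
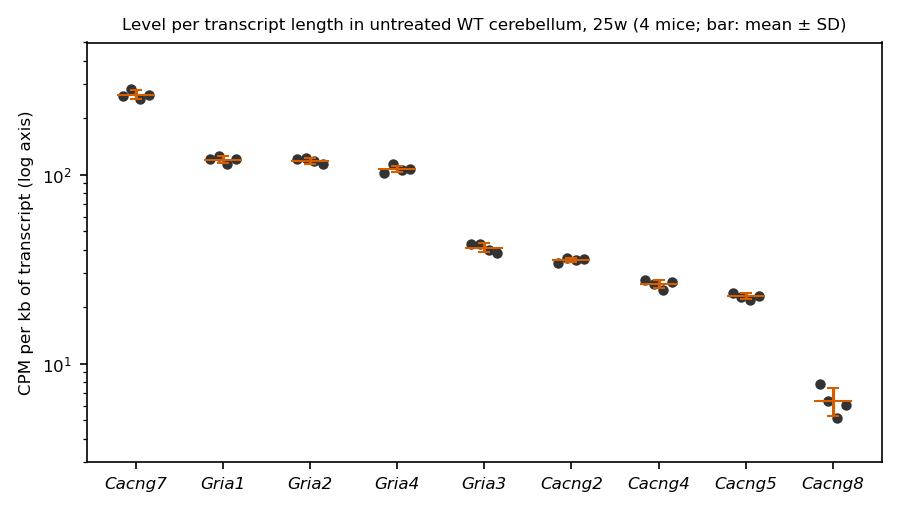
Level of each gene in the 4 untreated WT cerebella of 25w, as CPM per kilobase of median transcript length on a log axis; points are mice and bars the mean ± SD. Cacng7 stands highest at 265, Gria1, Gria2 and Gria4 lie between 107 and 120.0, and Cacng8 is lowest at 6.34.

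The first comparison asks how SCA7 mice given the control vector differ from WT mice at 25w. The SCA7 mice carried the virus, its eGFP and a hairpin, and the WT mice carried none of them. Genotype and vector therefore cannot be told apart in this comparison. In SCA7 mice Gria3 fell by 21.8% and Cacng2 fell by 13.7%, while Cacng4 was 25.8% higher and Gria2 11.9% higher. Cacng7 fell by 8.78%. The other 4 genes, Gria1, Gria4, Cacng5 and Cacng8, did not pass the test. A gene passed when its adjusted p was under 0.05 by the quasi-likelihood test of edgeR, after Benjamini-Hochberg correction over the 14862 protein-coding genes tested, and it was called when its fold change was also above 1.3. Of the 9 genes 5 passed, 2 higher and 3 lower, where 15.5% of all genes tested passed. None was called, where 4.02% of all genes were. The median log2 fold change was −0.05 over the 9 genes and 0.0017 over all genes.

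Gria3 showed the clearest separation of the subunit genes. Its level was 156, 157, 145 and 141 CPM in the WT mice and 116, 115, 119, 113 and 122 CPM in the SCA7 mice given shSCR. Every SCA7 mouse lay below every WT mouse. The log2 fold change was −0.36 (standard error, SE, 0.042; adjusted p = 1.5e-05), and leaving out any single mouse kept it between −0.38 and −0.33.

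Gria2, whose product sets the calcium permeability of the receptor, moved the other way. It was measured at 432, 435, 420.1 and 404 CPM in WT mice and at 451, 481, 462, 488 and 483 CPM in SCA7 mice given shSCR. The groups did not overlap. The log2 fold change was 0.16 (SE 0.044; adjusted p = 0.0189). The test was no longer passed without replicate 4 of the WT mice (adjusted p = 0.0696) or without replicate 4 of the shSCR mice (adjusted p = 0.0522), with log2 fold changes of 0.14 and 0.15.

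Gria1 and Gria4 differed by less than the spread between mice. Gria1 was at 607 to 672 CPM in WT and 590 to 649 CPM in SCA7 mice, a log2 fold change of −0.05 (95% interval −0.15 to 0.05, adjusted p = 0.485). Gria4 was at 541 to 598 CPM in WT and 524 to 567 CPM in SCA7 mice, a log2 fold change of −0.04 (95% interval −0.13 to 0.05, adjusted p = 0.605).

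Among the type I TARPs, Cacng2 fell and Cacng4 rose. Cacng2 was at 188, 200.4, 196 and 197 CPM in WT mice and at 178.9, 161, 168.4, 166.6 and 167.01 CPM in SCA7 mice given shSCR. No SCA7 mouse reached the WT range, and the log2 fold change was −0.21 (SE 0.036; adjusted p = 5.5e-04). Cacng4, a TARP of glia and of the developing brain, was at 54.3, 52.0, 48.4 and 53.2 CPM in WT mice and at 71.7, 60.6, 58.2, 66.1 and 70.3 CPM in SCA7 mice. Here each SCA7 mouse exceeded each WT mouse, with a log2 fold change of 0.33 (SE 0.070; adjusted p = 0.00356). Cacng8 was at 7.15 to 10.7 CPM in WT and 7.95 to 9.59 CPM in SCA7 mice, and its log2 fold change of 0.024 has a wide 95% interval of −0.26 to 0.31 (adjusted p = 0.934).

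The type II TARPs gave smaller differences. Cacng7 was at 395, 429.6, 378 and 398 CPM in WT mice and at 385, 358, 374, 351 and 356 CPM in SCA7 mice. The groups overlapped, since the highest SCA7 mouse exceeded the lowest WT mouse, and the log2 fold change was −0.13 (SE 0.037; adjusted p = 0.0223). The test was not passed without replicate 2 of the WT mice (log2 fold change −0.10, adjusted p = 0.0867) or without replicate 4 or 5 of the shSCR mice (−0.12 each, adjusted p = 0.0580 and 0.0501). Cacng5, a TARP of Bergmann glia, was at 80.5 to 87.8 CPM in WT and 75.6 to 84.6 CPM in SCA7 mice, a log2 fold change of −0.05 (95% interval −0.20 to 0.09, adjusted p = 0.678). Over the 9 genes, the groups did not overlap in 4 (Gria2, Gria3, Cacng2 and Cacng4), against 16.8% of all genes tested.

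**Figure D2:**
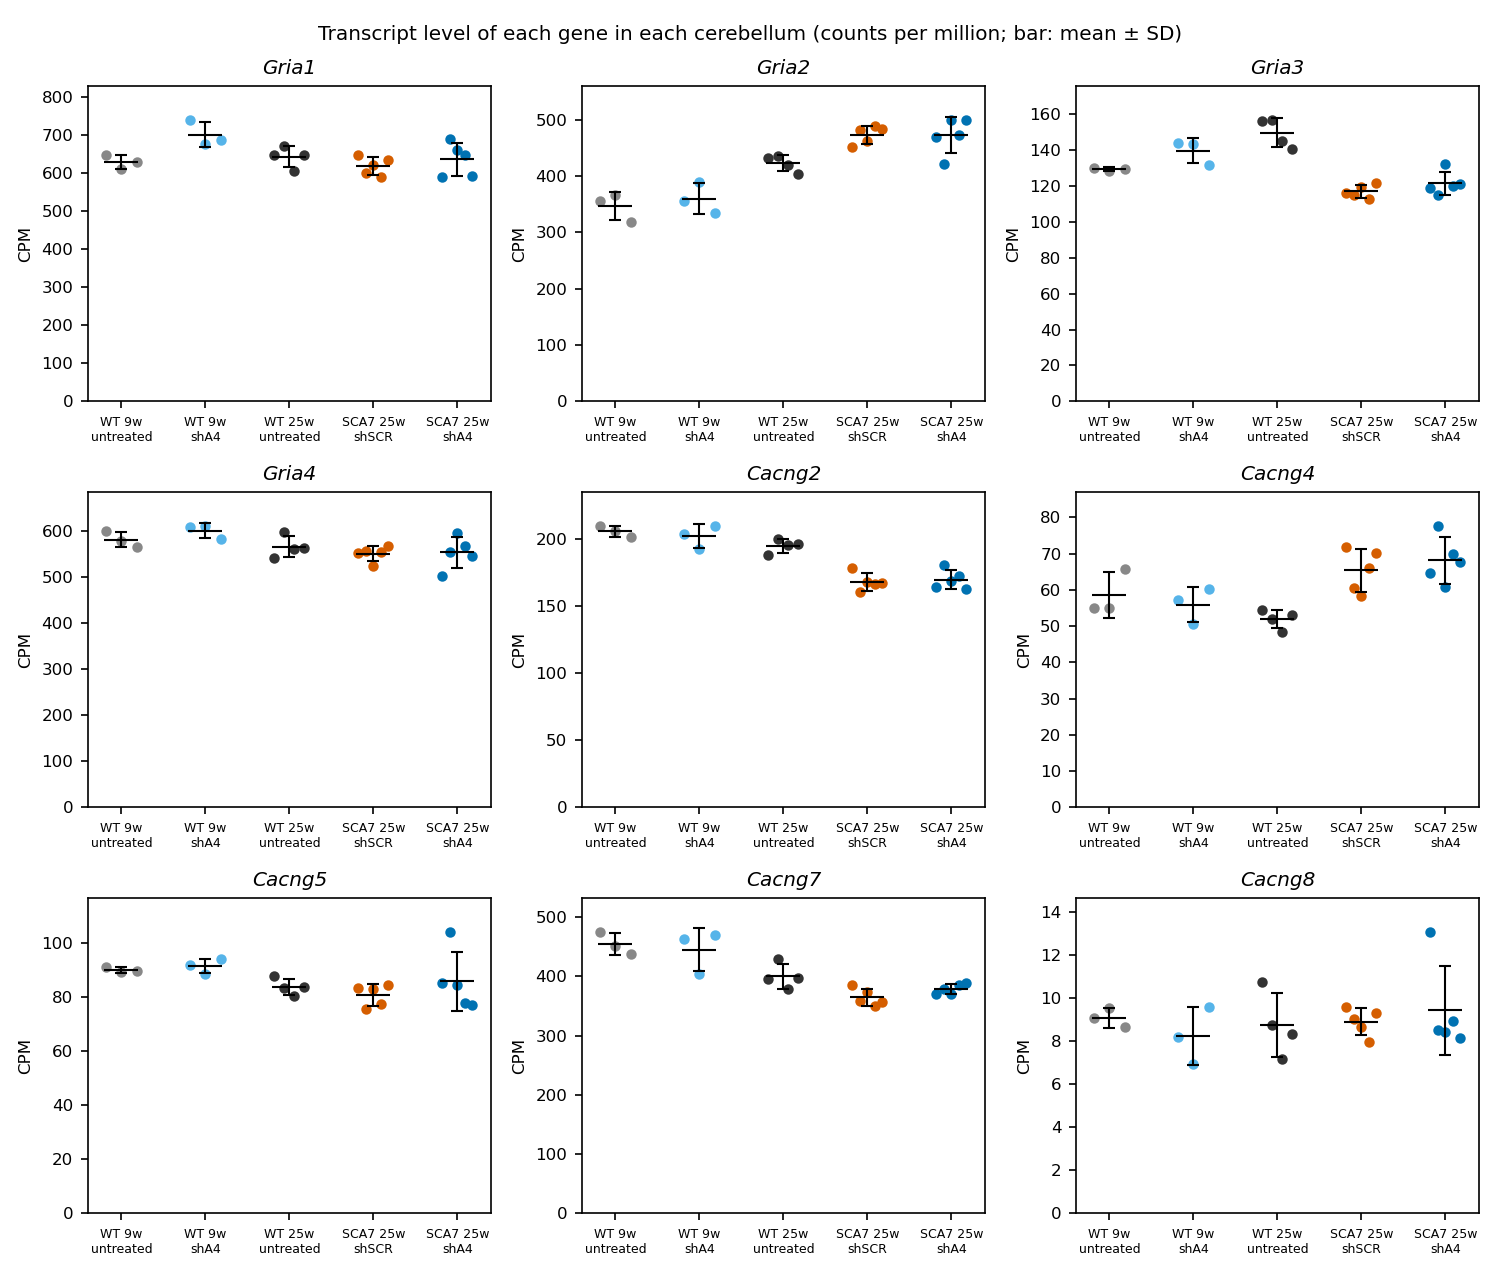
CPM of the 9 genes in each cerebellum by group; points are mice and bars the mean ± SD, and each axis starts at 0. Gria3 and Cacng2 sit lower in both SCA7 groups than in WT mice of 25w, Cacng4 sits higher, and Cacng8 has 1 high mouse at 13.1 CPM in the shA4 group of SCA7 mice.

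Markers of some cerebellar cell types differed between SCA7 and WT mice. For scale, 15.5% of all genes tested passed against WT with shSCR and 13.6% with shA4. All 8 Purkinje cell markers were lower than in WT mice with shSCR and with shA4, with median log2 fold changes of −0.48 and −0.46, and none of them was at 0 in any group. Their summed level was 5617 to 6417 CPM in WT mice of 25w, 3728 to 4205 CPM with shSCR and 3814 to 4404 CPM with shA4. Of the 8 markers of Bergmann glia and astrocytes 3 were lower in each SCA7 group, and their sum was 3324 to 3425 CPM in WT mice, 2912 to 3123 CPM with shSCR and 2953 to 3502 CPM with shA4. Among 7 granule cell markers 1 was higher and 1 lower in each SCA7 group, with sums of 4143 to 4925, 4463 to 4637 and 3954 to 4480 CPM. Of the 7 oligodendrocyte markers 3 were lower in each, with sums of 5526 to 6543, 4052 to 4883 and 4497 to 5126 CPM. Of 6 markers of molecular layer interneurons 1 was lower in each, none of the markers of oligodendrocyte precursors, microglia or choroid plexus passed, and 1 of 3 blood markers was higher with shSCR. The part of these cell types in the lower Gria3 and Cacng2 and the higher Gria2 and Cacng4 was not tested.

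SCA7 mice given shA4 were compared with the same 4 WT mice, so the values of both comparisons share their controls and are given side by side without further test. Here too, genotype and vector cannot be told apart. With shA4, Gria3 fell by 18.9% and Cacng2 fell by 13.0% relative to WT mice, while Gria2 was 11.7% higher and Cacng4 31.1% higher. These 4 of 9 genes passed the test, where 13.6% of all genes passed, and 1 of 9 was called, where 3.45% of all genes were. The median log2 fold change was −0.016 over the 9 genes and 0.0061 over all genes. Over the 9 genes the groups did not overlap in 3 (Gria3, Cacng2 and Cacng4), against 13.4% of all genes tested.

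Gria3 was at 119, 115, 132, 120.0 and 121 CPM in SCA7 mice given shA4, below each WT mouse (141 CPM or more). Its log2 fold change against WT was −0.30 (SE 0.042; adjusted p = 9.2e-05), next to −0.36 with shSCR. Cacng2 was at 165, 180.5, 168.9, 172.4 and 162.6 CPM, also below every WT mouse, with a log2 fold change of −0.20 (SE 0.035; adjusted p = 9.8e-04), next to −0.21. Gria3 and Cacng2 passed in both comparisons whichever single mouse was left out.

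Cacng4 was at 64.7, 77.7, 60.7, 69.8 and 67.7 CPM in SCA7 mice given shA4, and all 5 lay above the WT range. It was the gene called among the 9, with a log2 fold change of 0.39 (SE 0.070; adjusted p = 0.00105), just past the limit of 0.38 that 1.3-fold sets. In 16 of 19 other settings its fold change stayed above 1.3, and it passed the adjusted p in all 19, with log2 fold changes of 0.34 to 0.43. It fell short of the fold limit without replicate 2 of the shA4 mice (0.34) and without replicate 3 of the WT mice (0.36).

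Gria2 was at 469.6, 421, 499.5, 473 and 499.1 CPM with shA4. Replicate 2, at 421 CPM, lay inside the WT range, and the other 4 mice lay above it. The log2 fold change was 0.16 (SE 0.044; adjusted p = 0.0232), next to 0.16 with shSCR. Without replicate 3 or 5 of the shA4 mice (adjusted p = 0.0542 and 0.0595) or replicate 3 or 4 of the WT mice (adjusted p = 0.0607 and 0.0855) it did not pass, with log2 fold changes of 0.14 to 0.16. Cacng7 was at 370.5, 379, 369.7, 386 and 389 CPM, within the range of the WT mice in 3 of 5 mice, with a log2 fold change of −0.08 (95% interval −0.16 to 0.00032, adjusted p = 0.190). Gria1 (−0.016), Gria4 (−0.03), Cacng5 (0.03) and Cacng8 (0.11) did not pass, with adjusted p from 0.663 to 0.871.

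The direct comparison of shA4 with shSCR in SCA7 mice asks whether the hairpin against CAG repeats changed these transcripts. None of the 9 genes passed, and neither did any other of the 14862 genes tested by edgeR's quasi-likelihood test (0% passed and 0% were called). Before adjustment 1222 genes had a p under 0.05, none of them among the 9, and DESeq2 called 5 genes. The groups overlapped in each of the 9 genes, against 1.49% of all genes that did not overlap.

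For the genes that differed from WT, the interval of the difference between the hairpins is given beside the difference from WT. The log2 difference of shA4 minus shSCR was 0.05 for Gria3 (95% interval −0.03 to 0.14), 0.012 for Cacng2 (−0.06 to 0.08), 0.06 for Cacng4 (−0.08 to 0.20), −0.0022 for Gria2 (−0.09 to 0.09) and 0.05 for Cacng7 (−0.02 to 0.13). Set against the differences from WT of −0.36 for Gria3 and −0.21 for Cacng2, the upper ends of their intervals, 0.14 and 0.08, stop short of the estimated WT level. For Cacng4 and Gria2 the difference from WT was an increase of 0.33 and 0.16. The lower ends, −0.08 and −0.09, also stop short of the estimated WT level. The difference of Gria2 from WT had a 95% interval of 0.07 to 0.26 with shSCR and of 0.07 to 0.25 with shA4. Both intervals lie above the WT level, though each test was lost without some single mice, as given above. For Cacng7 the upper end, 0.13, nearly equals its difference from WT of −0.13 in size, so its interval comes close to the WT level. For Gria1, Gria4, Cacng5 and Cacng8 the differences were 0.04 (−0.06 to 0.13), 0.0062 (−0.08 to 0.09), 0.09 (−0.05 to 0.22) and 0.09 (−0.18 to 0.35). An adjusted p that misses the threshold does not show that the hairpins act alike.

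**Figure D3:**
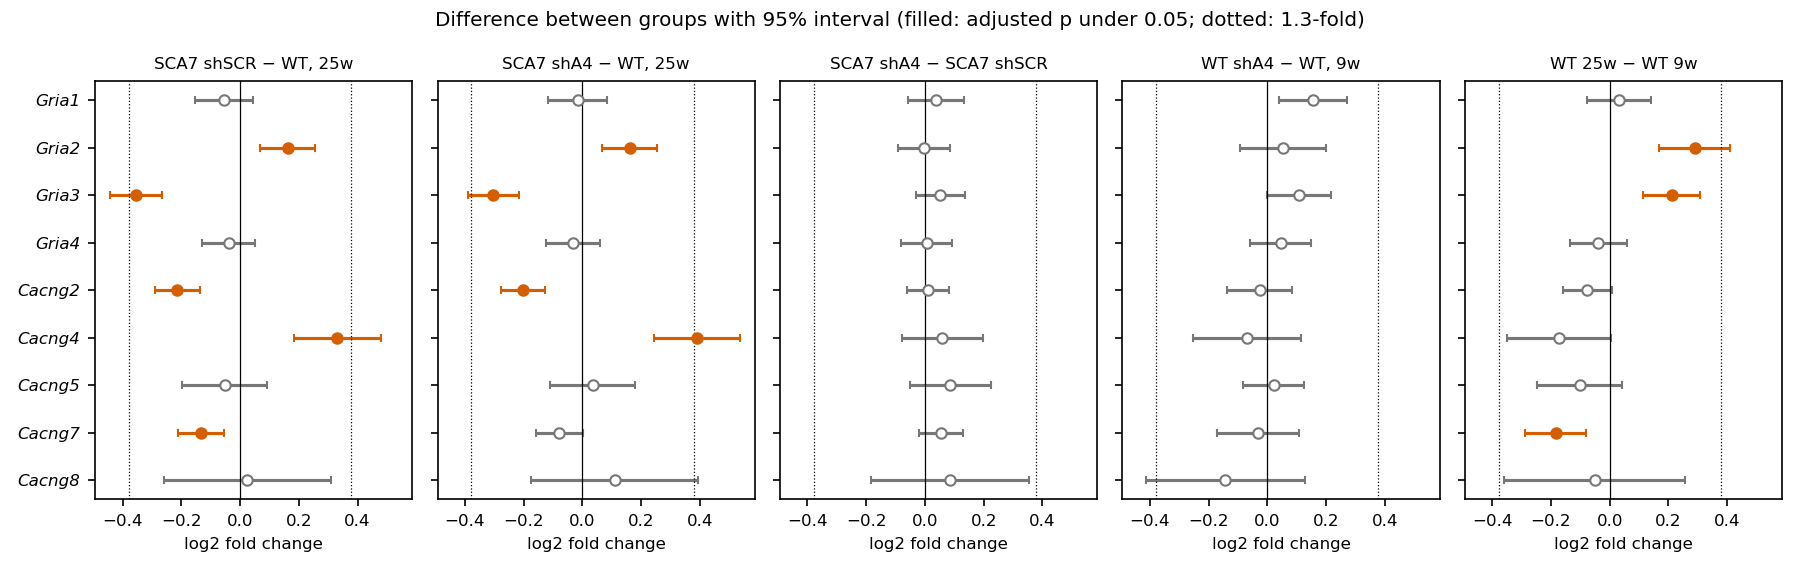
Log2 fold change of each gene in the 5 comparisons with its 95% interval; filled points passed an adjusted p under 0.05 and dotted lines mark 1.3-fold. Gria3 and Cacng2 lie left of 0 and Gria2 and Cacng4 right of 0 in both comparisons of SCA7 with WT mice, and all 9 intervals of shA4 against shSCR include 0.

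In WT mice, which carry no expanded repeat, shA4 was compared with no vector at 9w. The treated mice carried the virus, its eGFP and the hairpin and the controls none of them, so hairpin and vector cannot be told apart. None of the 9 genes passed, where 0.0679% of the 14733 genes tested passed and 0.0543% were called. Gria1 came nearest, at 741, 677 and 688 CPM with shA4 and 649, 610.4 and 629 CPM without. The groups did not overlap, and the log2 fold change was 0.16 (95% interval 0.04 to 0.27, unadjusted p = 0.0125 and adjusted p = 0.330 in edgeR's quasi-likelihood test). Gria3 was at 144, 143 and 132 CPM with shA4 and 130.2, 128 and 129.6 CPM without, again without overlap, for a log2 fold change of 0.11 (95% interval −0.0011 to 0.22, adjusted p = 0.453). These 2 of 9 genes without overlap stand against 16% of all genes tested. For the other 7 genes the log2 fold change ranged from −0.14 (Cacng8) to 0.05 (Gria2), with adjusted p of 0.691 or more.

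Between untreated WT mice of 9w and 25w, age and any other difference between these sets of libraries cannot be told apart. Gria2 was 22.2% higher at 25w, Gria3 was 15.7% higher, and Cacng7 was lower. These 3 of 9 genes passed, where 24.2% of the 15095 genes tested passed, and none was called, where 5.27% were. Gria2 rose from 355, 365 and 318 CPM at 9w to 404 to 435 CPM at 25w, a log2 fold change of 0.29 (SE 0.059; adjusted p = 0.00129). Gria3 rose from 128 to 130.2 CPM at 9w to 141 to 157 CPM at 25w (0.21, SE 0.046; adjusted p = 0.00247). Cacng7 fell from 475, 451 and 438 CPM to 378 to 429.6 CPM, a log2 fold change of −0.18 (SE 0.050; adjusted p = 0.0105), which did not pass without replicate 1 of the 9w mice (adjusted p = 0.0642). The groups did not overlap in 6 of 9 genes, against 33.4% of all genes. All 7 oligodendrocyte markers listed also fell between the ages, with a median log2 fold change of −0.44. So did 3 of 7 granule cell markers, with a median of −0.14 over the list. Among markers of Bergmann glia and astrocytes 2 of 8 were lower (median −0.061), a count near the 24.2% of all genes that passed. Of the microglia markers 3 of 6 rose (median 0.22), and none of 8 Purkinje cell markers passed. The part of these cell types in the values was not tested.

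Gria3 levels in WT mice were thus 129 ± 1.00 CPM (SD, n = 3) at 9w and 149.7 ± 8.07 CPM (SD, n = 4) at 25w, against 117 ± 3.59 CPM and 121 ± 6.45 CPM (SD, n = 5 each) in SCA7 mice given shSCR and shA4. For Gria2 the same 4 groups were at 346 ± 24.8, 423 ± 14.04, 473 ± 15.9 and 472 ± 31.8 CPM (SD).

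As a description of the mix of subunit transcripts, the share of each gene in the sum of the 4 Gria genes per transcript length was computed in each library. The share of Gria3 was 10.6% ± 0.366 in WT mice of 25w, 8.35% ± 0.226 with shSCR and 8.56% ± 0.267 with shA4 (SD, n = 4, 5 and 5). That of Gria2 was 30.6% ± 0.715, 34.5% ± 1.05 and 34.0% ± 2.10 in the same groups. Gria1 took 31.04%, 30.1% and 30.5%, and Gria4 27.7%, 27.1% and 26.9%. The ratio of Gria2 to Gria3 CPM, which needs no length, was 2.77 to 2.90 in WT mice of 25w, 3.88 to 4.33 with shSCR and 3.67 to 4.13 with shA4. In the 6 early libraries it was 2.45 to 2.85, so all 10 SCA7 mice lay above all 10 WT mice. The ratio joins a gene found higher with a gene found lower in these same libraries, so its separation is not separate support. The summed level of the 4 genes was 387 ± 12.02 in WT mice, 384 ± 6.23 with shSCR and 389 ± 15.6 with shA4, in CPM per kilobase. The shares move with the length used: with the longest transcript Gria2 took 14.1% in WT mice of 25w and 16.2% and 15.996% in the shSCR and shA4 groups, and with the union of exons 11.4%, 13.1% and 12.9%.

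**Figure D4:**
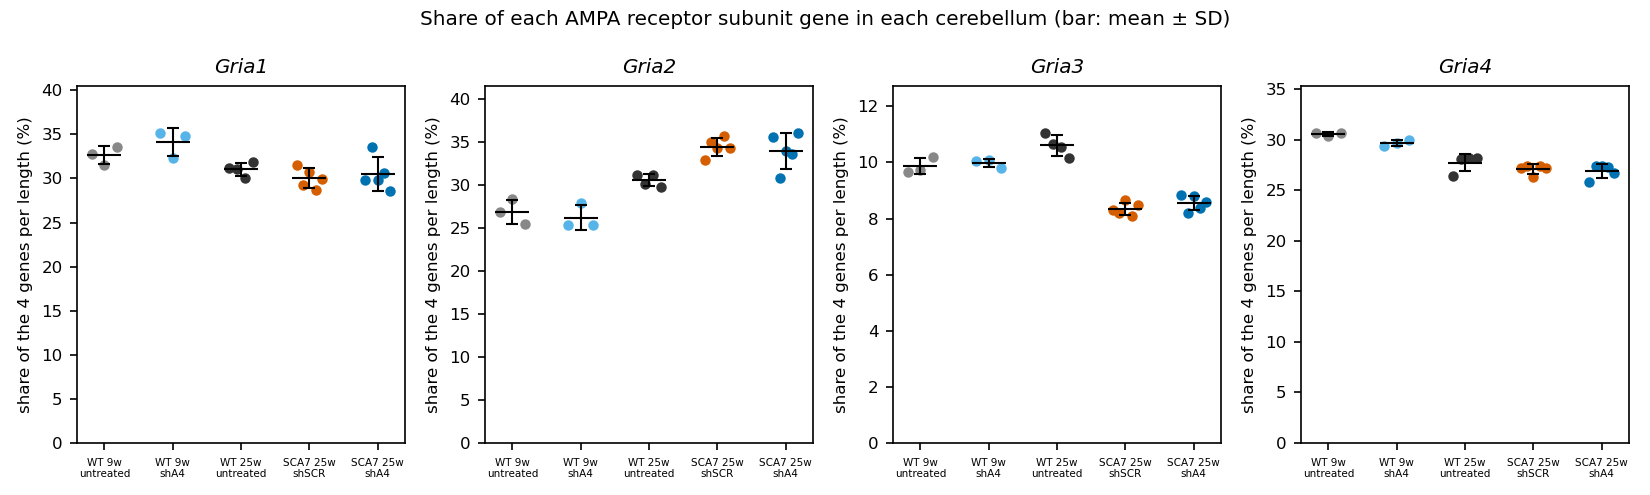
Share of each Gria gene in the sum of the 4, per median transcript length, in each cerebellum; points are mice and bars the mean ± SD. The Gria3 share is 10.2% to 11.1% in WT mice of 25w and 8.08% to 8.83% in the SCA7 mice, and the Gria2 share is higher in SCA7 mice than in WT mice except in 1 mouse given shA4.

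Other genes of the receptor system were read from lists of 51 genes, of which 49 were tested. Cacng1 and Cacng6, gamma subunits that are not TARPs, had at most 6 counts in a library and were not tested. In SCA7 mice given shSCR, 21 of the 49 were lower and 2 higher than in WT mice, and 9 were called. With shA4, 16 were lower and 1 higher, and 5 were called. Over all genes tested, 15.5% passed and 4.02% were called with shSCR, and 13.6% passed and 3.45% were called with shA4, in both directions together. No gene of these lists passed between shA4 and shSCR or between WT mice with and without shA4.

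Among the other AMPA receptor auxiliary subunits, 9 of 10 were lower with shSCR than in WT mice and none was higher, with a median log2 fold change of −0.43, and with shA4 7 of 10 were lower, with a median of −0.30. The part of the lower Purkinje cell markers in these counts was not tested. With shSCR, 6 were called. Cacng3, a further type I TARP, was at 10.2 to 15.8 CPM in WT mice and 5.51 to 8.40 CPM with shSCR, a log2 fold change of −0.82 (SE 0.15; adjusted p = 0.00109). With shA4 it was at 8.76 to 13.1 CPM (log2 fold change −0.21, adjusted p = 0.384). In the direct comparison of shA4 with shSCR, Cacng3 did not pass.

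Shisa6, which keeps AMPA receptors in an activated state at the synapse, fell from 244 to 282 CPM in WT mice to 178 to 194 CPM with shSCR and 172.5 to 204 CPM with shA4, at log2 differences of −0.49 and −0.47 (adjusted p = 1.5e-06 and 2.6e-06). Syndig1, a synapse differentiation protein that binds AMPA receptors, was at 129 to 144 CPM in WT mice and at 91.9 to 99.7 and 91.5 to 101 CPM in the SCA7 groups (−0.47 and −0.46, adjusted p = 7.2e-07 and 1.1e-06). Neither gene overlapped between SCA7 and WT mice. Shisa8 (−0.49 and −0.62), Shisa9 (−0.39 and −0.41) and Gsg1l (−0.39 and −0.25) passed against WT in both SCA7 groups, Shisa8 and Shisa9 were called in both, and Gsg1l was called with shSCR.

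Several of these calls were lost when a single mouse was left out, with fold changes in the same direction. Shisa8 with shSCR did not pass without replicate 2 or 3 of the shSCR mice or replicate 2 or 4 of the WT mice (log2 fold changes −0.45, −0.44, −0.43 and −0.46). Shisa9 did not pass without replicate 1 or 2 of the shSCR mice or replicate 1 of the WT mice (−0.37, −0.38 and −0.35), and with shA4 it did not pass without replicate 1 of the WT mice (−0.37). For shA4 its fold also dropped under the limit without replicate 2 of the shA4 mice (−0.29). The fold of Gsg1l with shSCR dropped under the limit without replicate 1, 2 or 4 of the shSCR mice (−0.38, −0.37 and −0.37) or replicate 3 of the WT mice (−0.34). Cacng3, Shisa6 and Syndig1 with shSCR passed whichever single mouse was left out.

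The neuronal pentraxins, secreted proteins that gather AMPA receptors at synapses, were lower in 3 of 3 genes with shSCR and in 2 of 3 with shA4. Nptxr had log2 fold changes of −0.29 and −0.35 and Nptx1 of −0.23 and −0.25. Nptx2 was scarce, at 0.696 to 2.55 CPM in WT mice and 0.344 to 0.766 CPM with shSCR, a log2 fold change of −1.56 (SE 0.48; adjusted p = 0.0364). It did not pass without replicate 1 or 2 of the WT mice (−1.11 and −1.59) or without replicate 1, 2, 3 or 4 of the shSCR mice (−1.49, −1.64, −1.46 and −1.47), and with shA4 it was at 0.444 to 2.75 CPM.

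Of the scaffold and trafficking genes 5 of 12 were lower with shSCR and 2 of 12 with shA4, the latter close to the 13.6% of all genes that passed. Grip2, which binds the tails of the Gria2 and Gria3 products, was called with shSCR at a log2 fold change of −0.51 (adjusted p = 0.0214), and did not pass without replicate 1 of the WT mice (−0.30) or replicate 4 or 5 of the shSCR mice (−0.49 and −0.47). Dlg4, the gene of PSD-95, was lower with shSCR (−0.12, adjusted p = 0.00918) and at −0.09 with shA4 (adjusted p = 0.0638). Epb41l1 (−0.22 and −0.16) and Dlg2 (−0.19 and −0.18) were the scaffold and trafficking genes that passed in both SCA7 groups. Among 7 assembly and export genes Olfm1 was lower in both SCA7 groups (−0.17 and −0.19), a count near the share of all genes that passed. None of the 3 RNA editing genes passed, with Adarb1, the gene of ADAR2, at −0.06 and −0.03 (adjusted p = 0.162 and 0.505).

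Among kainate receptor genes, 2 of 7 were higher and 2 lower with shSCR, and 1 was higher and 3 lower with shA4. Grik1 was called in both SCA7 groups, at 33.4 to 38.6 CPM in WT mice, 23.1 to 26.1 CPM with shSCR and 23.7 to 26.1 CPM with shA4 (−0.52 and −0.50 on the log2 scale, adjusted p = 1.1e-06 and 2.0e-06). Grik2 was higher by 0.32 and 0.22. Of the NMDA receptor genes 1 of 7, Grin1, was lower (−0.13 and −0.14), a count near the 15.5% and 13.6% of all genes that passed. Between untreated WT mice of 9w and 25w, Shisa7 was called among these lists, at 17.8 to 24.1 and 23.7 to 33.2 CPM (log2 fold change 0.42). It did not pass without replicate 1 of the 25w mice (0.30) or replicate 1 or 3 of the 9w mice (0.36 and 0.34).

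**Figure D5:**
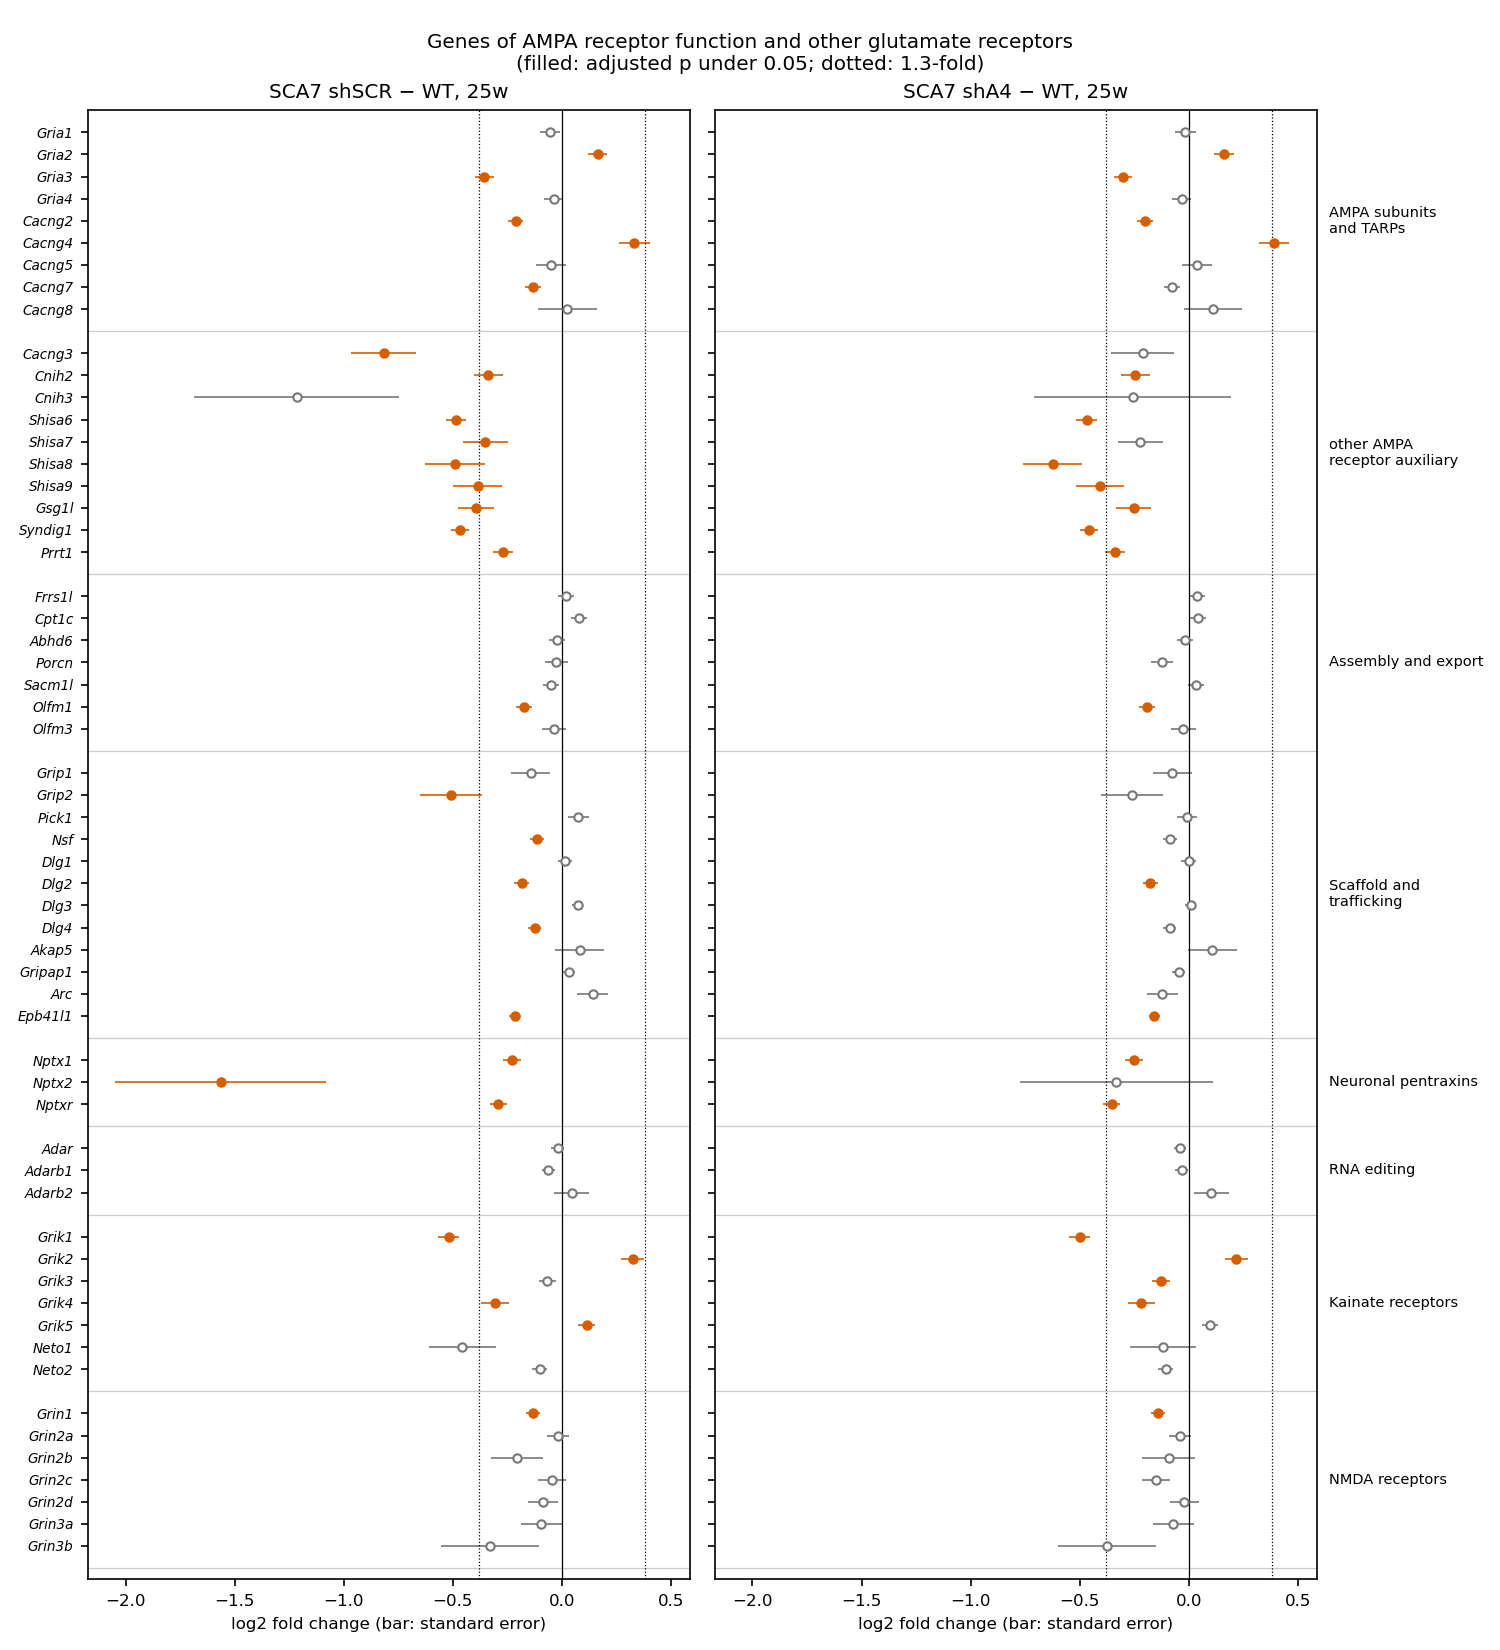
Log2 fold change of the 9 genes and of 49 other genes of AMPA receptor function and glutamate receptors in both SCA7 groups against WT mice of 25w; bars are standard errors, filled points passed an adjusted p under 0.05 and dotted lines mark 1.3-fold. The auxiliary subunits lie left of 0 in both panels, while the 9 genes lie on both sides.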

How the data were processed

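The count table deposited by the authors holds raw read counts per gene for 20 libraries. Per the labels and methods, the authors removed adapters with cutadapt 1.10 and ribosomal reads with Bowtie2 2.2.8, mapped the rest to mm10 with STAR 2.5.3a and counted them on Ensembl genes with HTSeq 0.6.1p1. Symbols, gene types and lengths were taken here from GENCODE M21, which has 55141 of the 55401 genes. Protein-coding genes kept by filterByExpr (minimum count 10, minimum total 15) were tested with edgeR 4.0.16 (R 4.3.3): TMM normalization, quasi-likelihood test, Benjamini-Hochberg adjustment. The 14 late libraries were fitted together, the 6 early ones likewise, and all 20 for the comparison of ages. The fits were tested on simulated data. CPM were scaled by TMM over all 20 libraries. Reads per length divide them by the median transcript length. Replicates are single mice of a group, and their counts differed by more than counting noise. Named were the 9 genes, every called gene of the pathway lists (at most 6 per list), and other listed genes chosen after their values were seen. Members and lists were chosen with earlier results of these data known. Alternatives were DESeq2 1.42.0, RLE size factors, no filter, each library left out, a replicate block, 1 fit of all libraries, thinned counts, and other lengths. The replicate numbers of the labels do not pair the mice. Some listed genes are not reported here.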

Additional observations from a re-analysis of the deposited data

Results flagged for a closer look

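Cacng8 in SCA7 mice given shA4 held 1 value far from the others: replicate 1 was at 13.1 CPM, while the next highest of the 5 mice was at 8.95 CPM and the lowest at 8.17 CPM. Its gap to the next value was 0.840 of the range of the group. Of the 27 groups of 4 or 5 mice looked at in this way this was the only one past the limit, and chance alone passes about 1 in 20. Without this mouse the log2 fold change of Cacng8 against WT mice turned from 0.11 to −0.04, and neither value passed. The cause was not tested.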

How the results depend on the processing

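Of 837 repeats of the fits read for the 9 genes, 798 kept direction and side of the threshold, 13 lost the threshold and 26 turned the sign, none of the latter in a difference that had passed. Gria3 and Cacng2 passed against WT in both SCA7 groups under every setting run, and so did Cacng4. The replicate block, on numbers that do not pair the mice (correlations of same-numbered deviations from −0.219 to 0.476), left 3 of 9 genes passing for shSCR against WT instead of 5 (Gria2 at adjusted p = 0.0571, Cacng7 at 0.0519) and took Gria2 below the threshold for shA4 against WT (adjusted p = 0.0704) and Cacng4 under 1.3-fold there (log2 fold change 0.377). It moved the genes called in WT mice given shA4 from 8 to 37. For these mice DESeq2 called 53 genes, no filter 26 and 1 fit of all libraries 20, and leaving out a mouse gave 1 to 43 (4 and 2 without untreated replicates 2 and 3, 1 and 43 without treated replicates 2 and 3). DESeq2 called 5 genes for shA4 against shSCR. With each mouse left out, 3 to 5 of the 9 genes passed for shSCR against WT (3 without replicate 4 of the shSCR mice). Signs turned with a mouse left out for shA4 against shSCR in Cacng2 (−0.011 to 0.035), Gria2 (−0.022 to 0.036), Gria4 (−0.021 to 0.039) and Cacng8 (−0.065 to 0.13), for shA4 against WT in Cacng5 (−0.045 to 0.071), Cacng8 (−0.042 to 0.23) and Gria1 (−0.048 to 0.0094), for shSCR against WT in Cacng8 (−0.062 to 0.14), for 25w against 9w in Cacng8 (−0.17 to 0.035), and for WT mice given shA4 in Cacng2 (−0.055 to 0.012), Cacng4 (−0.13 to 0.025), Cacng7 (−0.073 to 0.039) and Gria2 (−0.0024 to 0.10). The cause was not tested. The called genes of the pathway lists were run through the same alternatives after the data had been seen, and their lost calls stand beside their values. Levels per length and shares of the Gria genes moved with the transcript length, as given above. Precision is limited by the spread between mice and, for Cacng8, by its low count.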

Other observations

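Over the 14 libraries of 25w, the genes whose log2 CPM ran most closely with each of the 9 genes were looked up among 14853 other genes, as a description in which group differences and shared library properties both enter. For Gria3 they were Gnal and Dgkh (Pearson r of 0.976 and 0.9753, and 0.844 and 0.809 for the deviations from the group means). For Cacng2 they were Rph3a and the calcium channel gene Cacna1g (0.967 and 0.966), and for Cacng4 Zc3h7b and the tubulin gene Tuba1a (both 0.954). Gria2 ran with Tfdp2 (0.924) and Pon2 (0.913), Cacng8 with Tpbg (0.919) and Hpcal4 (0.903), and Cacng7 with Pard6a (0.916) and Clec2l (0.887). Gria1 ran with Hsd11b1 (0.907) and Lrp11 (0.904), Cacng5 with Pygb (0.916) and Txnip (0.893), and Gria4 with Taf1d (0.893) and Klhl23 (0.890).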
